A study of Mus musculus with 6 samples.

Results

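The linker histone genes described here are H1f1, H1f2, H1f3, H1f4, H1f5, H1f0 and H1f10, 7 of the 21652 genes in the count table. They were chosen by gene name as a family, with earlier results of these data known, and all 7 had enough counts to be tested. The libraries are ribosome footprints of MIN6 cells, a mouse beta-cell tumour line that secretes insulin, so that a count reflects both the amount of an mRNA and how densely ribosomes occupy it. Of the 6 libraries, 3 came from cells expressing sgLTN1, a CRISPR guide against the Listerin gene Ltn1, and 3 from cells expressing sgNT, taken here as a non-targeting control guide. All 6 were grown to the same stated confluence and carry the same batch label. The labels do not say whether a group is 1 clone or a pool, or whether its libraries came from separate cultures, so a p-value measures the spread between these libraries, which may be technical. RNA-seq of these cells was not used here, so mRNA level and translation were not separated.

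Linker histones, or H1 proteins, bind the nucleosome where DNA enters and leaves it and help to compact chromatin. H1f1 to H1f5 encode the replication-dependent subtypes, which are made mainly in S phase from intronless mRNAs that end in a stem-loop instead of a poly(A) tail. H1f0 and H1f10 encode replication-independent subtypes, made through the cell cycle, and H1f0 is known to accumulate in cells that stop dividing and differentiate.

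The classes also differ in the sequence before their start sites, which is shown here as background. Whether these sequences bear on the fold changes was not tested. Promoters were taken from RefSeq, build GRCm38.p6, which held all 7 genes: H1f1 to H1f5 lie on chromosome 13, H1f0 on chromosome 15 and H1f10 on chromosome 6. Exact matches to AAACACA (the H1 box), CCAAT and TATAAA were searched on both strands of the 250 bases before each start. The last 130 bases before the start are printed 5′ to 3′ along the gene, with matches on either strand in capitals.
H1f1, chr13:23763538-23763667, plus strand: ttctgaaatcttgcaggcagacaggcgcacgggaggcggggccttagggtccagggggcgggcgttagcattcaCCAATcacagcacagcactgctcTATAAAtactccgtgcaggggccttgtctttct
H1f2, chr13:23738677-23738806, plus strand: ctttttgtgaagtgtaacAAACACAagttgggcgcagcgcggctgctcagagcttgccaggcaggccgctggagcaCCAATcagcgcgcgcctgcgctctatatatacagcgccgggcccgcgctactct
H1f3, chr13:23554902-23555031, plus strand: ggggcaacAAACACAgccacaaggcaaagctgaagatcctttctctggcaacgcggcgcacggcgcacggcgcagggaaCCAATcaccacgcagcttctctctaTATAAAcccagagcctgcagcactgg
H1f4, chr13:23622559-23622688, minus strand: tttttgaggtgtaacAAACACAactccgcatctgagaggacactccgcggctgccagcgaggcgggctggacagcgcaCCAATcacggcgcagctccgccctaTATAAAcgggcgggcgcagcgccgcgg
H1f5, chr13:21780626-21780755, minus strand: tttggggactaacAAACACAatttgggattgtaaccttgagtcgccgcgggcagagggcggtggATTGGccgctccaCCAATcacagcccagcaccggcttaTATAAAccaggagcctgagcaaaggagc
H1f0, chr15:79028082-79028211, plus strand: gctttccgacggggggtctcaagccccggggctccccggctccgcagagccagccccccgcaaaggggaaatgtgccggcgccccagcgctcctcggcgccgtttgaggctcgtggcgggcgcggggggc
H1f10, chr6:87981483-87981612, minus strand: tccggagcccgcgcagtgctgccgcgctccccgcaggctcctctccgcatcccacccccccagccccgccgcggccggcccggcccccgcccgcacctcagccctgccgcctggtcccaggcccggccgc
CCAAT was found in all 5 replication-dependent promoters, with a match beginning between positions -56 and -51 from the start (-1 is the last base before it) in each. The H1 box was found in 4 of them, H1f2 to H1f5, where it began between positions -122 and -112, and no exact match lay in the H1f1 window. TATAAA was found in H1f1, H1f3, H1f4 and H1f5. The H1f2 window holds the similar string tatatata, which an exact search does not count. None of these motifs was found in the H1f0 or H1f10 window, whose GC contents were 74.4% and 75.2%, against 47.6% to 54.8% in H1f1 to H1f5. Among all 32851 RefSeq windows of this length, 6.25% held the H1 box, 33.8% CCAAT and 12.4% TATAAA. Among the 53 windows of core histone genes, the shares were 7.55%, 81.1% and 45.3%. The motifs do not overlap each other, and a match is a string of letters, not a shown binding site.

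Totals ranged from 4373467 to 11198735 counts per library. Footprints on Ltn1, the targeted gene, averaged 67.2 ± 3.67 CPM (counts scaled to a library of 1000000; mean ± SD, n = 3) in sgLTN1 and 143 ± 1.84 CPM in sgNT, with no overlap (log2 fold change -1.09, SE 0.07, Benjamini-Hochberg adjusted p = 9.24e-05 in edgeR's quasi-likelihood F test). Of 12782 genes tested, 12 passed an adjusted p of 0.05 as lower in sgLTN1, 0.0939% of those tested, and 11 as higher, 0.0861%. Of 12 beta-cell markers, 11 were tested, 8 of them above 0 (47.3% of all tested genes were), and none passed in edgeR (0 lower and 3 higher at an unadjusted p under 0.05, where 7.56% of all tested genes were lower and 8% higher). Their median log2 fold change was 0.08, which turned to -0.075 with the abundance trend removed. DESeq2 called 1 of the 11 with an adjusted p, Slc30a8, higher, where it called 183 of 2697 genes higher. The 12 together took 139226 to 160127 CPM in sgLTN1 and 135685 to 148712 CPM in sgNT. Of 16 markers of other islet, exocrine and stromal cells, 7 were tested and none passed in edgeR (0 lower and 2 higher at an unadjusted p under 0.05), nor did the 1 with an adjusted p in DESeq2. They summed to 616 to 697 CPM in sgLTN1 and 630.3 to 656 CPM in sgNT. Sst, the somatostatin gene, had the smallest p among them, with 43.3 ± 3.65 CPM in sgLTN1 and 30.4 ± 1.42 CPM in sgNT (adjusted p = 0.062).

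Listerin is the ubiquitin ligase of ribosome quality control, which marks nascent chains on stalled ribosomes, and the design asks what changes in translation when its gene is targeted. All 5 replication-dependent linker histone genes had lower CPM in every sgLTN1 library than in any sgNT library, where 10.1% of all tested genes did. H1f1 passed the threshold over all genes, 1 of 5, beside 0.0939% of all tested genes. The other 4 did not pass, with adjusted p between 0.058 and 0.0939 in edgeR. In bulk libraries fewer cells in S phase and fewer footprints per cell cannot be told apart.

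H1f1 (ENSMUSG00000049539.4) encodes the subtype H1.1, also called H1a in the mouse. It read 73.7, 65.9 and 70.3 CPM in sgLTN1 libraries 1 to 3, against 105, 112 and 106 CPM in sgNT libraries 1 to 3. The sgLTN1 libraries were all below the sgNT ones, and the highest sgLTN1 library stood 0.51 below the lowest sgNT library on the log2 scale. H1f1 fell to 70.0 ± 3.89 CPM in sgLTN1, against 108 ± 3.68 CPM in sgNT (SD, n = 3 each). The log2 fold change was -0.62 (SE 0.07, 95% interval -0.78 to -0.46), a change of -35.0%, with adjusted p = 0.00696, the 6th smallest p of all tested genes. Underlying counts were 816, 607 and 342 in sgLTN1 and 457, 903 and 492 in sgNT. The call ended without sgLTN1 library 2 (log2 fold change -0.57, adjusted p = 0.132) and without sgNT library 2 (-0.58, adjusted p = 0.0527).

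H1f4 (ENSMUSG00000051627.4) encodes H1.4, known in the mouse as H1e. It read 329.7, 319 and 360.4 CPM in sgLTN1 libraries 1 to 3, against 417, 438 and 460.1 CPM in sgNT libraries 1 to 3. The groups did not overlap, and the mean was 336 ± 21.5 CPM in sgLTN1 and 438 ± 21.5 CPM in sgNT (log2 fold change -0.38, SE 0.07, 95% interval -0.53 to -0.24, adjusted p = 0.058).

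H1f5 (ENSMUSG00000058773.3) encodes H1.5, known in the mouse as H1b. It read 191, 183 and 201 CPM in sgLTN1 libraries 1 to 3, against 234, 251 and 254 CPM in sgNT libraries 1 to 3. Again every sgLTN1 library was lower, with a mean of 192 ± 8.79 CPM in sgLTN1 and 246 ± 10.6 CPM in sgNT (log2 fold change -0.36, SE 0.06, 95% interval -0.51 to -0.22, adjusted p = 0.058).

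H1f3 (ENSMUSG00000052565.8) encodes H1.3, known in the mouse as H1d. It read 304, 285 and 336 CPM in sgLTN1 libraries 1 to 3, against 379, 398 and 392 CPM in sgNT libraries 1 to 3. The sgLTN1 values were lower and more spread, with a mean of 309 ± 25.8 CPM in sgLTN1 and 389.7 ± 9.91 CPM in sgNT (log2 fold change -0.34, SE 0.07, 95% interval -0.49 to -0.19, adjusted p = 0.0881).

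H1f2 (ENSMUSG00000036181.3) encodes H1.2, known in the mouse as H1c. It read 372, 347 and 399 CPM in sgLTN1 libraries 1 to 3, against 445, 462 and 472 CPM in sgNT libraries 1 to 3. The groups did not overlap, and the fold change was the smallest in size of the 5 genes (mean 373 ± 25.7 CPM in sgLTN1 and 459.5 ± 13.6 CPM in sgNT, log2 fold change -0.30, SE 0.06, 95% interval -0.45 to -0.16, adjusted p = 0.0939).

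**Figure D1:**
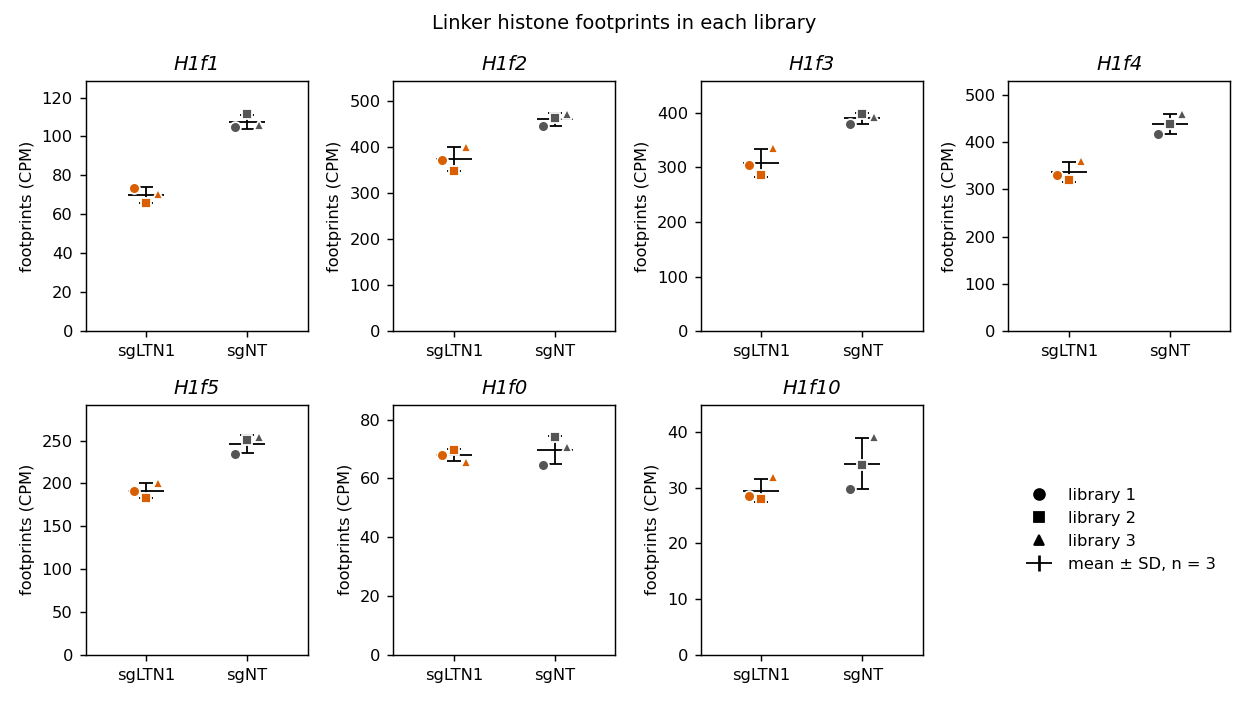
Footprints in CPM (vertical axes from 0) on each linker histone gene in the 3 sgLTN1 and the 3 sgNT libraries; points are libraries, bars the mean ± SD. For H1f1 to H1f5 every sgLTN1 point lies below every sgNT point, while for H1f0 and H1f10 the groups overlap.

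In the authors' deposited table, made with DESeq2 from the same 6 libraries and so no independent evidence, all 5 replication-dependent genes passed an adjusted p of 0.05. There the log2 fold changes were -0.60 for H1f1 (adjusted p = 7.01e-06), -0.36 for H1f4 (adjusted p = 9.85e-04), -0.34 for H1f5 (adjusted p = 0.0037), -0.32 for H1f3 (adjusted p = 0.00652) and -0.28 for H1f2 (adjusted p = 0.0121). H1f0 did not pass there (-0.02, adjusted p = 0.935). H1f10 (-0.21) was given no adjusted p, so it could not be called. The authors' deposited table gives an adjusted p for 2697 genes and calls 44 of them lower, 1.63%.

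The groups overlapped in both replication-independent genes. H1f0 (ENSMUSG00000096210.3) read 68.0, 69.8 and 65.8 CPM in sgLTN1 libraries 1 to 3, against 64.4, 74.0 and 70.8 CPM in sgNT libraries 1 to 3. All sgLTN1 values lay within the range of the sgNT values. The mean was 67.9 ± 2.04 CPM in sgLTN1 and 69.7 ± 4.87 CPM in sgNT (log2 fold change -0.04, SE 0.08, adjusted p = 0.85), and the 95% interval ran from -13.6% to 9.27%.

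H1f10 (ENSMUSG00000044927.8), which encodes the divergent subtype once called H1x, read 28.5, 28.0 and 31.8 CPM in sgLTN1 libraries 1 to 3, against 29.8, 34.1 and 39.0 CPM in sgNT libraries 1 to 3. The sgLTN1 mean of 29.5 ± 2.08 CPM was below the sgNT mean of 34.3 ± 4.63 CPM, but sgLTN1 library 3 exceeded sgNT library 1. The log2 fold change was -0.23 (SE 0.11, 95% interval -0.47 to 0.01, adjusted p = 0.335), an interval that reaches into the range of H1f2 to H1f5, so H1f10 was not shown to differ from them. It had the lowest counts of the 7 genes, 130 to 316 per library, where counting alone gives a coefficient of variation of 5.63% to 8.77%, against 7.07% seen between the sgLTN1 libraries and 13.5% between the sgNT libraries.

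**Figure D2:**
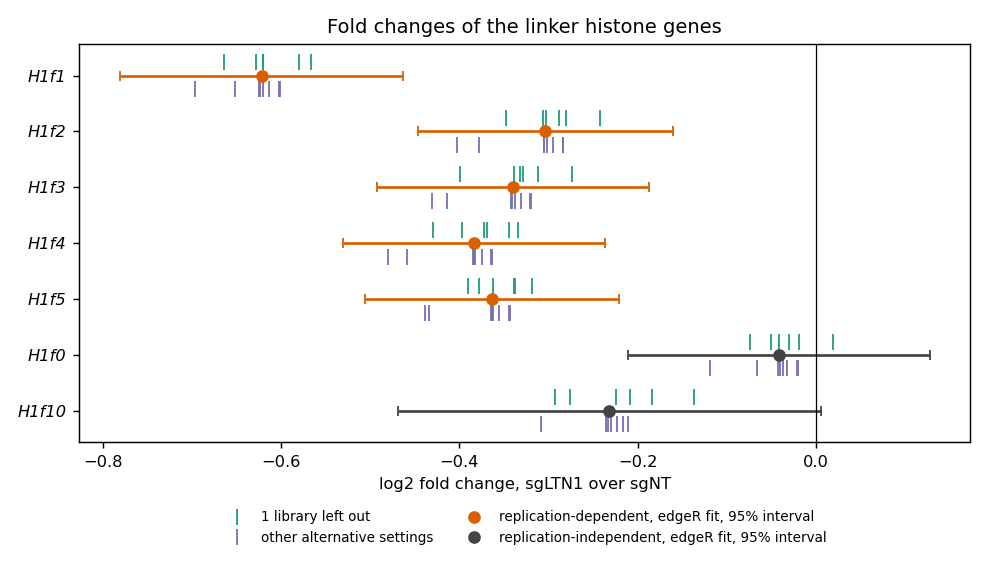
Log2 fold change of sgLTN1 over sgNT (horizontal axis) for each gene; points and bars are the edgeR value and its 95% interval, ticks above each bar are fits with 1 library left out and ticks below are the other alternative settings. H1f1 lies at -0.62, H1f2 to H1f5 between -0.38 and -0.30, and H1f0 at -0.04 with ticks on both sides of 0.

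The classes were set against each other within each library, where scaling between libraries cancels. Summed counts of H1f1 to H1f5 over summed counts of H1f0 and H1f10 gave a ratio of 13.2, 12.3 and 14.0 in sgLTN1 libraries 1 to 3, against 16.8, 15.4 and 15.3 in sgNT libraries 1 to 3. Every sgLTN1 ratio was below every sgNT ratio. On the log2 scale the ratio averaged 3.71 ± 0.10 in sgLTN1 and 3.98 ± 0.07 in sgNT (SD, n = 3 each), a difference of -0.27. It is given as a description with no p, because the members were chosen with earlier results of these data known.

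The classes were also summed on their own. H1f1 to H1f5 together read 1271, 1201 and 1366 CPM in sgLTN1, against 1579.7, 1660.4 and 1684 CPM in sgNT, a log2 difference of -0.36. H1f0 and H1f10 together read 96.5, 97.8 and 97.6 CPM in sgLTN1, against 94.2, 108 and 109.8 CPM in sgNT, a log2 difference of -0.093 with overlapping groups. That difference was -0.16 without sgNT library 1, where the groups no longer overlap, and -0.053 without sgNT library 3. With H1f10 alone as denominator the difference was -0.15, and the groups overlapped for the ratios of H1f2, H1f3 and H1f5 to H1f10.

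**Figure D3:**
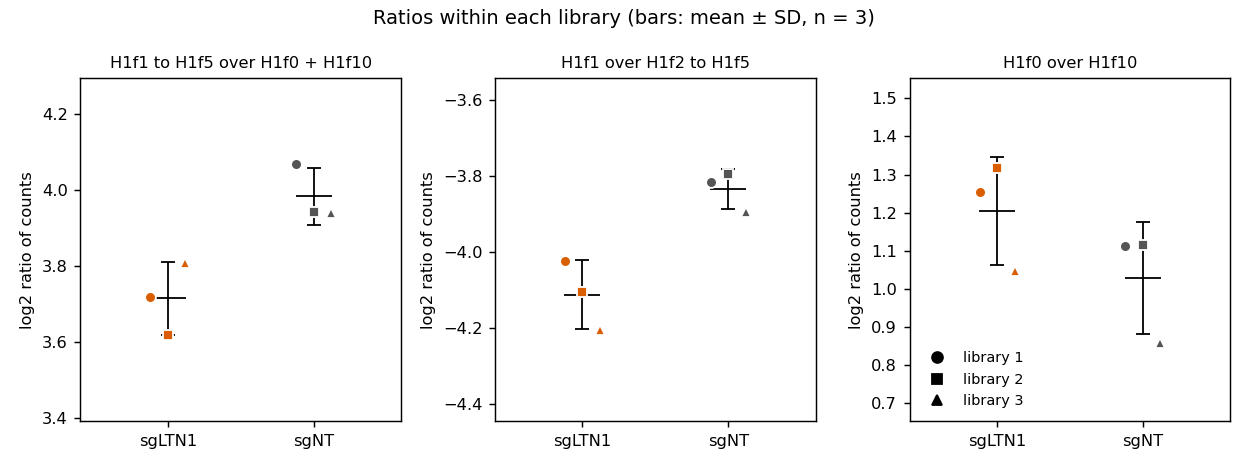
Log2 ratio of counts within each library (vertical axes, each spanning the same length) for H1f1 to H1f5 over H1f0 and H1f10, for H1f1 over H1f2 to H1f5, and for H1f0 over H1f10; points are libraries, bars the mean ± SD. The groups separate in the first and second panels and overlap in the third.

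Within the replication-dependent class, H1f1 had the largest fall, although its 95% interval overlapped those of H1f3, H1f4 and H1f5. The log2 ratio of H1f1 to the sum of H1f2 to H1f5 was -4.02, -4.11 and -4.20 in sgLTN1 libraries 1 to 3, against -3.82, -3.79 and -3.89 in sgNT libraries 1 to 3. The difference of the means was -0.28, without overlap, and H1f1 was lower relative to each of the other 6 members in turn, without overlap. These ratios all share the H1f1 counts, so they are not separate observations. H1f1 was singled out by its fold change in the same libraries, and its difference from the other members was not tested. Log2 ratios among H1f2, H1f3, H1f4 and H1f5 moved by at most 0.08 between the groups. The largest of these shifts, of H1f2 over H1f4, was without overlap, at 0.15 ± 0.027 in sgLTN1 and 0.069 ± 0.029 in sgNT, and the other 5 ratios overlapped.

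As a share of all linker histone counts, which are not corrected for gene length, H1f1 held 5.09% ± 0.293 in sgLTN1 and 6.16% ± 0.215 in sgNT. The share of H1f0 was 4.95% ± 0.443 in sgLTN1 and 3.99% ± 0.172 in sgNT, again without overlap, while its CPM overlapped between the groups. H1f2 held a higher share in sgLTN1 (27.1% ± 0.278, against 26.3% ± 0.231 in sgNT) and H1f4 a lower one (24.4% ± 0.283, against 25.1% ± 0.484 in sgNT), both without overlap. Shares within a library add up to a whole, so a change in any gene shifts the others. The CPM of H1f2 was lower in every sgLTN1 library than in any sgNT library. The shares of H1f3 (22.4% ± 0.521 in sgLTN1 and 22.3% ± 0.422 in sgNT) and H1f5 (13.9% ± 0.205 in sgLTN1 and 14.1% ± 0.109 in sgNT) overlapped, as did that of H1f10 (2.14% ± 0.0475 in sgLTN1 and 1.96% ± 0.200 in sgNT). All 7 genes together took 0.134% ± 0.00968 of the library in sgLTN1 and 0.179% ± 0.0101 in sgNT.

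Abundant genes tended to be higher in sgLTN1, the opposite direction. Among the 1533 tested genes between 6 and 8 on the log2 CPM scale, where H1f1, H1f5 and H1f0 lie, the median log2 fold change was 0.04, and among the 404 genes between 8 and 10, where H1f2, H1f3 and H1f4 lie, it was 0.13. Genes lower without overlap made up 12.2% of the 6 to 8 range and 5.69% of the 8 to 10 range, and genes higher without overlap 21.1% and 41.3%. With this trend removed, H1f4 (-0.48, adjusted p = 0.0451) and H1f5 (-0.43, adjusted p = 0.0451) passed the threshold beside H1f1.

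Core histones, the H2A, H2B, H3 and H4 proteins of the nucleosome, come from replication-dependent genes of the same kind. Of 62 core histone genes, 60 were tested and none passed over all genes in edgeR's test, although 33 were lower and 0 higher at an unadjusted p under 0.05 (7.56% of all tested genes were lower by that rule). Groups did not overlap in 26 of the 60, all lower in sgLTN1, beside 10.1% of all tested genes. Their median log2 fold change was -0.22, against -0.02 over all tested genes and -0.36 over H1f1 to H1f5. DESeq2 gave an adjusted p for 32 of them and called 2 lower, where it called 1.63% of all genes with an adjusted p lower. These were H3c10 (-0.29, adjusted p = 0.047) and H3c3 (-0.26, adjusted p = 0.049), which are named after their values were seen. Some core genes had near-equal counts, as given below, so the tallies and medians here and by class may not count separate genes.

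By class, the median was -0.29 over 12 H3 genes, -0.25 over 19 H2B genes, -0.22 over 12 H4 genes and -0.07 over 17 H2A genes. Groups did not overlap in 13 H2B, 7 H4, 4 H3 and 2 H2A genes, all lower in sgLTN1, and the H2A count is close to the 10.1% of all tested genes. The smallest p in the list belonged to the H2B genes H2bc26, at 15.6 ± 0.441 CPM in sgLTN1 and 22.0 ± 2.01 CPM in sgNT (-0.50, SE 0.10, adjusted p = 0.0881), and H2bc27, at 19.2 ± 1.53 CPM in sgLTN1 and 27.2 ± 4.33 CPM in sgNT (-0.53, SE 0.12, adjusted p = 0.109).

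**Figure D4:**
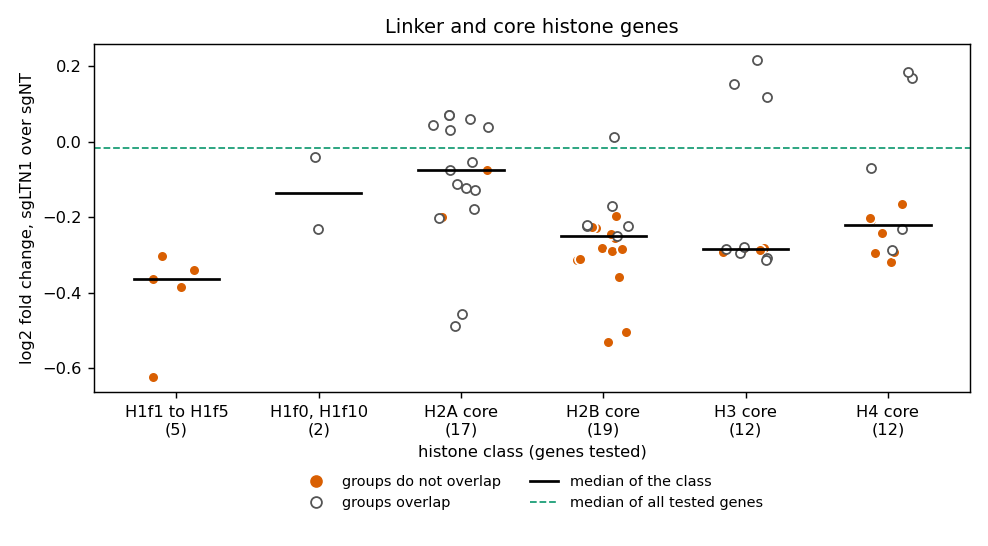
Log2 fold change of sgLTN1 over sgNT (vertical axis) for each tested linker and core histone gene by class; filled points are genes whose groups do not overlap, black bars class medians and the dashed line the median of all tested genes. H1f1 to H1f5 have a median of -0.36, the H2A genes one of -0.07.

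Set against the core histones within each library, H1f1 to H1f5 were lower still. The log2 ratio of their summed CPM to that of the 62 core genes was -1.59, -1.64 and -1.61 in sgLTN1 libraries 1 to 3, against -1.41, -1.52 and -1.53 in sgNT libraries 1 to 3, a difference of -0.12 without overlap. The difference was -0.30 against the H2A genes, -0.14 against H4, -0.11 against H2B, and -0.08 against H3, where the groups overlapped. Core histone counts are uncertain gene by gene: of 52 core genes with a mean of at least 50 counts, 24 had a partner whose count differed by no more than 10% in each of the 6 libraries. No pair of linker histone genes was so alike, but the handling of reads that fit several paralogs is not given in the sources used here, so reads could have moved between them.

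No gene of DNA replication passed the threshold. Of 46 S-phase and replication genes, all tested, 41 had a log2 fold change below 0 (52.7% of all tested genes did), with a median of -0.12. Groups did not overlap in 14 that were lower and 2 that were higher, beside 10.1% of all tested genes in each direction. In edgeR's test 0 passed over all genes, and DESeq2 called 0 of the 19 to which it gave an adjusted p. At an unadjusted p under 0.05 in edgeR, 7 were lower and 0 higher, where 7.56% of all tested genes were lower and 8% higher. Pcna, the sliding clamp of the replication fork, read 187 ± 1.68 CPM in sgLTN1 and 209 ± 5.72 CPM in sgNT (-0.16, SE 0.06, adjusted p = 0.219), and Prim1, a DNA primase subunit, 42.5 ± 0.630 CPM in sgLTN1 and 49.8 ± 1.61 CPM in sgNT (-0.23, SE 0.08, adjusted p = 0.19). The log2 ratio of summed H1f1 to H1f5 to these 46 genes was -1.19, -1.27 and -1.06 in sgLTN1 libraries 1 to 3, against -0.94, -0.93 and -0.87 in sgNT libraries 1 to 3, a difference of -0.26 without overlap.

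Among mitosis genes, 17 of 20 were below 0 (52.7% of all tested genes were), with a median of -0.13. Groups did not overlap in 7, all lower, beside 10.1% of all tested genes. None passed the threshold in edgeR or among the 13 with an adjusted p in DESeq2. By edgeR's unadjusted p under 0.05, 5 were lower and 0 higher, where 7.56% of all tested genes were lower and 8% higher. Tpx2, a spindle assembly factor, read 106 ± 2.92 CPM in sgLTN1 and 123 ± 7.24 CPM in sgNT (-0.22, SE 0.07, adjusted p = 0.184), and Ube2c, a ubiquitin-conjugating enzyme of mitotic exit, 49.2 ± 3.10 CPM in sgLTN1 and 58.0 ± 1.25 CPM in sgNT (-0.23, SE 0.08, adjusted p = 0.198).

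Replication-independent histone variants, such as H3.3 and H2A.Z, had 9 of 10 tested members below 0 (52.7% of all tested genes were) and a median of -0.12. Groups did not overlap in 2, both lower, beside 10.1% of all tested genes. None passed the threshold in edgeR or among the 3 with an adjusted p in DESeq2. By edgeR's unadjusted p under 0.05, 1 was lower, near the 7.56% of all tested genes, and 0 higher (8% of all tested genes). H3f3b, which encodes H3.3, read 23.8 ± 3.16 CPM in sgLTN1 and 28.6 ± 1.22 CPM in sgNT (-0.27, SE 0.11, adjusted p = 0.275). H2az1, which encodes H2A.Z, read 56.4 ± 0.982 CPM in sgLTN1 and 61.2 ± 1.09 CPM in sgNT (-0.12, SE 0.07, adjusted p = 0.457).

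A list of mRNA end processing and decay factors held those of histone mRNA and general cleavage and polyadenylation factors. Of its 28 tested members, 19 were below 0 (52.7% of all tested genes were), with a median of -0.03. Groups did not overlap in 7 that were lower and 2 that were higher, beside 10.1% of all tested genes in each direction. None passed in edgeR (4 lower and 1 higher at an unadjusted p under 0.05, where 7.56% of all tested genes were lower and 8% higher). DESeq2 called 1 of the 11 with an adjusted p, Wdr33, higher, where it called 183 of 2697 genes higher. Wdr33, a cleavage and polyadenylation subunit, read 83.2 ± 5.45 CPM in sgLTN1 and 66.0 ± 8.12 CPM in sgNT (0.34, SE 0.10, adjusted p = 0.153 in edgeR and 0.046 in DESeq2). Lsm1, of the cytoplasmic mRNA decay ring, read 2.23 ± 0.701 CPM in sgLTN1 and 4.33 ± 0.754 CPM in sgNT (-0.96, SE 0.28, adjusted p = 0.16 in edgeR).

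Of 21 tested linker histone chaperones and modifiers, 17 were below 0 (52.7% of all tested genes were), with a median of -0.16. The list also holds cell-cycle kinases and cyclins, and it shares Aurkb with the mitosis genes. Groups did not overlap in 8 that were lower and 1 that was higher, beside 10.1% of all tested genes in each direction. None passed in edgeR or among the 9 with an adjusted p in DESeq2. By edgeR's unadjusted p under 0.05, 8 were lower and 0 higher, where 7.56% of all tested genes were lower and 8% higher. Nasp, a histone chaperone that binds linker histones, had the smallest p, at 52.8 ± 3.03 CPM in sgLTN1 and 62.3 ± 2.81 CPM in sgNT (-0.23, SE 0.08, adjusted p = 0.197). Npm3, of the nucleoplasmin family, followed with 8.49 ± 2.12 CPM in sgLTN1 and 12.3 ± 1.98 CPM in sgNT (-0.56, SE 0.19, adjusted p = 0.205), and its groups overlapped.

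HMG proteins, which compete with linker histones for nucleosomes, had 6 of 9 tested members below 0 (52.7% of all tested genes were), with a median of -0.10. Groups did not overlap in 3, all lower, beside 10.1% of all tested genes. None passed in edgeR (3 lower and 0 higher at an unadjusted p under 0.05, where 7.56% of all tested genes were lower and 8% higher). DESeq2 gave an adjusted p to 1 of them, Hmgb2, and called it lower (-0.38, adjusted p = 0.00964), as it did 1.63% of all such genes. Hmgb2, a DNA-bending protein abundant in dividing cells, read 81.3 ± 2.60 CPM in sgLTN1 and 107 ± 7.86 CPM in sgNT (-0.40, SE 0.07, adjusted p = 0.0709 in edgeR), a fold change of the size seen in H1f4. Hmga1 read 22.5 ± 1.33 CPM in sgLTN1 and 28.9 ± 4.53 CPM in sgNT (-0.38, SE 0.12, adjusted p = 0.173 in edgeR).

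Across the 6 libraries, the genes whose log2 CPM followed summed H1f1 to H1f5 most closely, among 2575 other genes with a mean of at least 50 CPM, were Tubb5, a beta-tubulin (Pearson's r = 0.992), Psph, an enzyme of serine synthesis (0.985), and Cdkn1a, the cyclin-dependent kinase inhibitor p21 (0.981). All 3 were lower in sgLTN1 without overlap and none passed the threshold, with log2 fold changes of -0.18, -0.21 and -0.21. For summed H1f0 and H1f10 they were Mars1, the cytosolic methionyl-tRNA synthetase (0.980), Micos10, a subunit of the mitochondrial cristae organising complex (0.975), and Ecd (0.973). These correlations describe 6 libraries in 2 groups that share their depth and scaling, and carry no test.

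The germ-cell linker histone genes were nearly without footprints. H1f6, known from testis, held 15 counts over the sgLTN1 libraries and 14 over the sgNT libraries, H1f7 4 and 2, H1f9 1 and 1, and H1f8, known from oocytes, 0 in both groups.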

How the data were processed

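Ribosome footprints of 6 MIN6 libraries were analysed, with groups taken from the genotype label and library numbers from the titles. The authors deposited whole-number read counts per gene. Per the submitters' processing notes, the tools were featureCounts 2.12.3, STAR 2.7.11a, Bowtie2 2.5.4, DESeq2 1.38.3, SAMtools 1.9, UMI-tools 1.1.2 and fastp 0.23.4, with build GRCm39. Gene annotation, strand setting, use of molecular identifiers and the treatment of multi-mapped reads were not given in the sources used here. Per the file headers, a second deposited table holds log2 fold changes with standard errors, a mean normalized count (a signal level), a Wald score, and p-values. Its direction was checked against the counts, and DESeq2 1.42.0 run here gave the same 227 calls.

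Genes were kept by filterByExpr, scaled by TMM (factors 0.954 to 1.04) and tested with edgeR 4.0.16 in R 4.3.3 (quasi-likelihood test, group as the only term, Benjamini-Hochberg adjustment over 12782 genes, threshold 0.05). The standard error of a fold change was taken from the edgeR test statistic. The fit was tested on simulated counts. The members and lists were chosen with earlier results of these data known, so lists have no set test. Named genes are the 7 members, Ltn1, per list every gene past the threshold or else the 2 of smallest p (not all of the marker genes are printed), and the 3 best correlated with each class. Levels per length and a comparison of the proteins were planned and not made, since no coding lengths or protein sequences were used here. Libraries of a group differed by more than counting noise (chi-square per degree of freedom 2.61 to 7.21). The largest values, 7.21 and 5.27, were those of sgLTN1 library 3 with sgLTN1 libraries 1 and 2. No library was taken as a repeat deposit of another, which does not show that they are independent cultures. The intervals of the fold changes come from the edgeR fit and this standard error, so they include the spread between libraries. Coefficients of variation from counting alone cover counting error only.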

Additional observations from a re-analysis of the deposited data

How the results depend on the processing

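H1f1 to H1f5 lay below 0 in the reported fit and in all 14 alternatives. How many of the 5 passed the threshold varied: 1 in the reported fit, 0 without sgLTN1 library 2 or without sgNT library 2, 3 with the abundance trend removed, 4 with total-count scaling or no filter, and 5 with DESeq2, with the replicate block or without sgLTN1 library 3. With total-count scaling H1f3 (-0.41), H1f4 (-0.46) and H1f5 (-0.44) passed, and without a filter the same 3 genes did (-0.32, -0.36 and -0.34). DESeq2 gave -0.28, -0.32, -0.36 and -0.34 for H1f2 to H1f5, and removing the trend -0.48 for H1f4 and -0.43 for H1f5. With 1 library left out the values ran from -0.66 to -0.57 for H1f1, -0.35 to -0.24 for H1f2, -0.40 to -0.27 for H1f3, -0.43 to -0.33 for H1f4, -0.39 to -0.32 for H1f5 and -0.074 to 0.019 for H1f0, which turned positive (0.019) without sgNT library 2 and passed in no setting. H1f10 ran from -0.29 to -0.14. The ratio of the classes ran from -0.31 to -0.22 and was -0.15 with H1f10 alone. Summing H1f1 to H1f5 into 1 row before the fit left their change at -0.36. With the abundance trend removed, the median was -0.26 over core histone genes, -0.15 over S-phase genes and -0.15 over mitosis genes. Over all tested genes it was -0.0036. In that fit 48 of 60 core histone, 40 of 46 S-phase and 20 of 20 mitosis genes lay below 0, and none passed the threshold. Over all genes, higher and lower calls were 11 and 12 in the reported fit, 106 and 116 without a filter, 183 and 44 with DESeq2, 7 and 13 with the trend removed, and 34 lower with total counts. They ran from 0 to 191 and from 4 to 142 with 1 library left out, both highest without sgLTN1 library 3. Scaling without the histone genes, chosen after seeing the data, kept every call for the 7 genes. The causes were not tested.

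Library numbers are shared between the groups, but deviations of same-numbered libraries correlated at -0.05, 0.07 and 0.09, so the numbers were not taken as pairs. With the replicate block the log2 fold changes were -0.31 for H1f2, -0.34 for H1f3, -0.38 for H1f4 and -0.36 for H1f5, all past the threshold, and 406 genes were called higher and 203 lower. H1f10, with 130 counts in its shallowest library, is limited most by depth.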
